A study of Mus musculus with 388 samples.

Results

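The collagen genes other than those of type I were examined in single bone marrow stromal cells of the mouse. Members were all rows of the count table whose symbol reads Col, a number, a, and a number, without Col1a1 and Col1a2. This rule took 42 of 25000 genes and used no measured value. A count in at least 1 analysed cell was found for 34 of the 42, and 19 reached 20 CPM (counts per 1000000 counts) in at least 1 group of cells. The 8 members with no count in any analysed cell were Col4a3, Col4a4, Col6a6, Col9a1, Col10a1, Col13a1, Col19a1 and Col22a1.

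The cells came from C57BL/6 mice, 2 months old, that carried KitMerCreMer, a Cre recombinase that works only in the presence of tamoxifen, and R26tdTomato, a reporter that turns red in a cell and its descendants once Cre has acted. Tamoxifen was given at E12.5 and E14.5, counted in embryonic days, so Tomato+ cells are those whose precursors, at or near that time, used the Kit locus that drives the Cre, and Tomato- cells are the unmarked rest from the same kind of mouse. Cells of both groups were sorted as PDGFRα+ and negative for CD45, Ter119 and CD31, the surface markers of leukocytes, erythroid cells and endothelium. The titles put the cells into 2 orders. Order 1 held 137 analysed Tomato+ and 60 Tomato- cells, and order 2 held 48 and 141. Within the orders the titles name 8 sets: P1, P2 and P3 (Tomato+) and N2 (Tomato-) in order 1, and P1, P2, N1 and N2 in order 2. The number of animals is not stated, and both groups carry the Cre and received the drug, so there is no untreated control here. Because cells of 1 sample are not replicates, each group within an order counts as 1 sample, no test was made, and every difference below is a description of these cells.

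Collagens are triple helices of 3 chains. Fibrillar collagens pack into the fibres that bear load, fibril-associated collagens decorate the surface of those fibres, and the network collagens, above all type IV, form sheets such as the basement membrane beneath endothelium. Beaded filaments of type VI lie around cells, multiplexins lie in basement membranes, and transmembrane collagens are held at the cell surface or shed from it. In bone marrow the bulk of the mineralised matrix is type I, while the reticular stroma around the vessels makes types III, IV, V, VI and others.

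The depth of a cell had a median of 679644 counts and ran from 18031 to 3833473 over the 386 analysed cells. Lepr, the leptin receptor that marks perivascular marrow stroma, reached 1000 CPM in 320 of the 386. Markers of other cell types were present at unequal levels. In 29 cells, all Tomato- cells of order 2, at least 3 of 11 leukocyte markers were expressed. The summed level of that list was 15313 CPM there, while order 1 had 49.1 CPM (Tomato+) and 104 CPM (Tomato-) and the Tomato+ cells of order 2 had 77.9 CPM. Ptprc, the gene of CD45, was at 0 in both groups of order 1. Of these 29 cells 21 also expressed Lepr, with a median of 2140 CPM over the 29, so most are not shown to be another cell type. Of 11 endothelial markers, 3 or more were expressed in 4 cells, all Tomato+ and 3 of them in order 1, and of 10 pericyte and smooth muscle markers in 15 cells spread over both groups and orders, with a median of 4259 CPM of Lepr. A gene was called expressed in a cell at 5 counts and 50 CPM or more, because a low count need not mean expression. In the 8 leukocyte-list cells whose Lepr lay under 50 CPM, Col6a1 had counts in 8 of 8 but was expressed in 0, with a median of 5.61 CPM.

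The type VI chain Col6a1 led the family. On the scale of CPM of the summed cells per kilobase of the longest annotated transcript, averaged over the groups and orders, Col6a1 stood first at 228. It was followed by Col6a2 at 94.9, Col8a1 at 79.2, Col4a1 at 75.7 and Col3a1 at 72.1. Next came Col4a2 at 36.3 and Col5a2 at 34.9, and then Col16a1 at 11.6, Col12a1 at 10.4 and Col5a1 at 9.95. On the same scale the type I chain Col1a2 stood at 310 and Col1a1 at 76.4. The order below Col6a1 depended on the length. Per kilobase of the union of all annotated exons, Col6a1 came to 214, Col4a1 to 67.1, Col6a2 to 56.01, Col8a1 to 51.6 and Col3a1 to 40.8, with Col1a2 at 134 and Col1a1 at 69.1. Col6a2 and Col8a1 thus stood above Col1a1 by the longest transcript and below it by the exon union, and Col6a1 stood above it by both. By class, 7 of 9 fibrillar genes, 3 of 6 beaded filament genes, 4 of 9 fibril-associated genes, 2 of 6 basement membrane genes, 1 of 3 short-chain genes and 1 of 2 multiplexins reached 20 CPM. None of the 4 transmembrane collagens did.

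**Figure D1:**
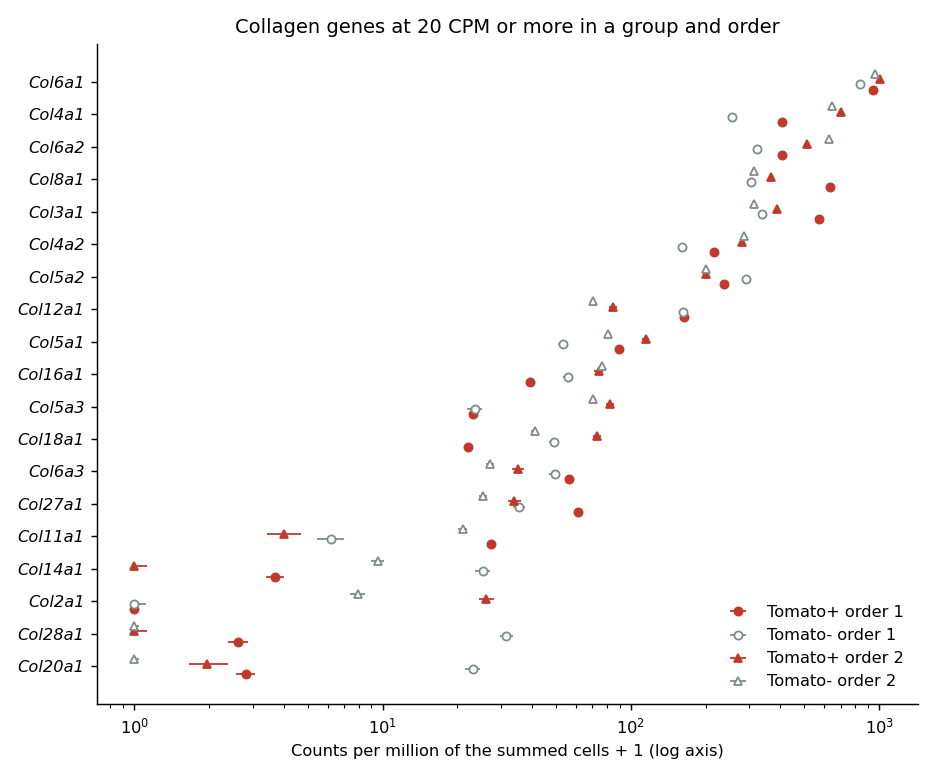
Level of the 19 collagen genes that reached 20 CPM, as CPM + 1 of the summed cells on a log axis, for each group and order; horizontal bars are exact Poisson 95% intervals, which cover counting error only. Col6a1 lies between 835 and 1006 CPM in all groups, whereas Col2a1, Col14a1, Col20a1 and Col28a1 spread from 0 to 20 CPM or more.

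From here on a pair of values is Tomato+ first and Tomato- second. All 42 members together made up 3913 against 3066 CPM in order 1 and, in order 2, 3998 against 3795 CPM. Type I collagen came to 2301 against 1235 CPM in order 1 and, in order 2, to 2520 against 2395 CPM. The summed level in single cells had a median of 3184 against 2010 CPM in order 1 and, in order 2, of 3963 against 3874 CPM. Tomato- cells of order 1 were lower than the other 3 groups in every one of these measures.

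A gene was called different between the groups only if, in the higher group, the mean of its CPM in the 2 orders reached 20 and 20% of the cells of both orders together had a count, if it differed by more than 1.5-fold in the same direction in both orders, and if it had the same sign in the mean of per-cell CPM. Of the 42 members, 14 passed the part of this rule that concerns level: Col3a1, Col4a1, Col4a2, Col5a1, Col5a2, Col5a3, Col6a1, Col6a2, Col6a3, Col8a1, Col12a1, Col16a1, Col18a1 and Col27a1. None of the 14 was called, 0 higher and 0 lower in Tomato+ cells. Among all 6681 genes at that level, 7.75% were called, 3.28% higher and 4.48% lower. In order 1 alone 5 of the 14 (Col3a1, Col4a1, Col5a1, Col8a1 and Col27a1) were over 1.5-fold higher in Tomato+ cells, where 27.6% of all genes were, and 1, Col18a1, was lower, where 24.5% were. In order 2 alone 1, again Col18a1, was higher, where 9.37% of all genes were, and 0 were lower, where 14.2% were. Except for the 5 of 14 in order 1, the members' shares thus lay near or below those of all genes.

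The median log2 ratio, Tomato+ over Tomato-, was 0.26 in order 1 and 0.23 in order 2 for the 14 members, beside 0.02 and -0.01 for all genes. The sign was the same in both orders for 10 of the 14 (71.4%) and for 54% of all genes. Fold changes are on the scale of log2(CPM + 1), which understates the change of low genes. In summed cells, fewer cells that express a gene and less RNA per cell cannot be told apart. Under a scaling by the median of ratios the median of all genes moved from 0.02 to -0.15 in order 1 and from -0.01 to 0.07 in order 2, and the sign flipped for Col6a1 (0.17 to -0.01) and Col12a1 (0.01 to -0.18) in order 1 and for Col4a2 (-0.03 to 0.05), Col5a2 (-0.01 to 0.07) and Col16a1 (-0.04 to 0.04) in order 2.

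**Figure D2:**
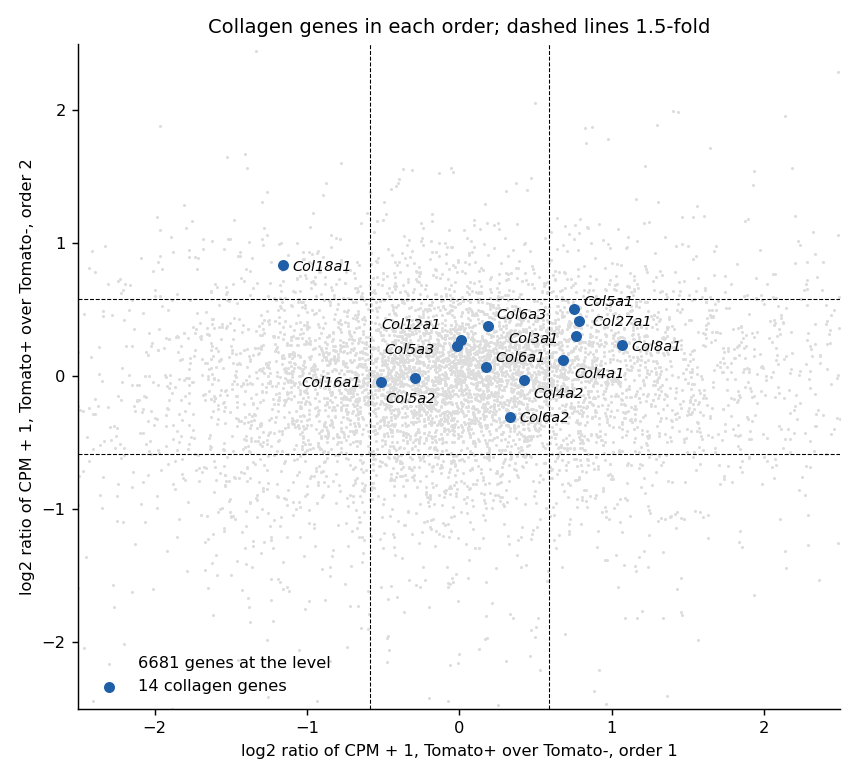
Log2 ratio of CPM + 1, Tomato+ over Tomato-, in order 1 (horizontal) and order 2 (vertical); blue points are the 14 collagen genes at the level, grey points all 6681 genes, of which 362 lie outside the plotted range, and dashed lines mark 1.5-fold. No collagen gene lies beyond 1.5-fold on both axes in the same direction; Col18a1 lies beyond it in opposite directions (-1.16 and 0.84).

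Col6a1 and Col6a2 encode chains of type VI collagen and stand next to each other on chromosome 10 (76708792 to 76726168 and 76595762 to 76623630, GRCm38, both on the minus strand). Col6a1 lay at 942 against 835 CPM in order 1 and, in order 2, at 1006 against 960 CPM. Its log2 ratios were 0.17 and 0.07, and of the 14 members it had the smallest larger ratio. It was also the most widely used one: 318 of 386 cells expressed it, 79.6% of Tomato+ and 68.3% of Tomato- cells in order 1 and 91.7% and 87.9% in order 2. Col6a2 lay at 406 against 322 CPM in order 1 and, in order 2, at 509 against 629 CPM. Its ratios had opposite signs, 0.34 and -0.31. Per length, Col6a1 exceeded Col6a2 by 1.83 to 3.11 times over the groups and orders.

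Col6a3, the longest chain of the common type VI molecule (chromosome 1, 90765923 to 90843971), was far lower. It lay at 55.1 against 48.3 CPM in order 1 and, in order 2, at 34.1 against 26 CPM, and 39 cells expressed it. Per length Col6a1 exceeded it by 42.2 to 91.1 times. All 3 chains were expressed together in 35 of 386 cells (9.07%). Of the chains that can take its place, Col6a5 was expressed in 18 cells and Col6a4 in 5, and Col6a6 had no count. With a single count as the mark, Col6a1 and Col6a3 were found together in 35.8% of cells. Most cells with Col6a1 and Col6a2 thus had no other chain that passed the expression call.

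Col4a1 and Col4a2, the chains of the basement membrane collagen found under most vessels, lie head to head on chromosome 8 (Col4a1 11198423 to 11312826 on the minus strand, Col4a2 11312805 to 11449287 on the plus strand). Their annotated starts are 21 bases apart, and the spans overlap there, so reads of the first bases cannot be assigned without strand information. The promoter windows that RefSeq gives for GRCm38.p6, 250 bases before to 50 after each start, are shown because the pair reads out from 1 stretch of DNA. The capitals mark the 78 bases that both windows share, read on opposite strands.
Col4a1, chr8:11312777-11313076, minus strand: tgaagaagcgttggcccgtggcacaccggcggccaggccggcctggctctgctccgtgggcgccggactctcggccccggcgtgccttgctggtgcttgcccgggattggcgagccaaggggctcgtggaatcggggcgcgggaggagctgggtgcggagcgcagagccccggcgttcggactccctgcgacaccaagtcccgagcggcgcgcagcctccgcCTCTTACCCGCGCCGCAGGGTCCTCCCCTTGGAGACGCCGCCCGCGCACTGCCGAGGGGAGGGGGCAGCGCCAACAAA
Col4a2, chr8:11312555-11312854, plus strand: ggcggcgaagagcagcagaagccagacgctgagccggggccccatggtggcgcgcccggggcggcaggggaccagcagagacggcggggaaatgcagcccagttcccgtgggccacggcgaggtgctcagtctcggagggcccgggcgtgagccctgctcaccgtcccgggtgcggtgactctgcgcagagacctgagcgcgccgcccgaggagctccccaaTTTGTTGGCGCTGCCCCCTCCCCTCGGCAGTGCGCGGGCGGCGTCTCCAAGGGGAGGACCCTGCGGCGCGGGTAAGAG
These windows hold 37 and 33 CpG pairs, beside a median of 7 over all 32851 promoter windows and 11 over the 37 windows of 34 collagen genes. Each holds CCAAT and GGGCGG and neither holds TATAAA, with both strands searched. Over all windows CCAAT occurs in 37.4%, GGGCGG in 35.7% and TATAAA in 13.6%, and over the collagen windows in 32.4%, 59.5% and 13.5%. A match describes the letters only.

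Col4a1 lay at 407 against 253 CPM in order 1 and, in order 2, at 700 against 642 CPM. Col4a2 lay at 214 against 159 CPM in order 1 and, in order 2, at 279 against 285 CPM. Per length Col4a1 exceeded Col4a2 in every group, by 1.55 to 2.45 times. The log2 ratios between groups were 0.68 and 0.12 for Col4a1 and 0.42 and -0.03 for Col4a2. Without set P1 of order 1 the order 1 ratio of Col4a2 was -0.15, and without set P2 of order 2 its order 2 ratio was 0.17 and that of Col4a1 -0.04. Both chains were expressed in more cells of order 2 than of order 1, in each group: 72.3% and 48.3% of Tomato+ and Tomato- cells expressed Col4a1 in order 1 and 91.7% and 88.7% in order 2, and for Col4a2 these shares were 48.9%, 26.7%, 89.6% and 79.4%. The meaning of the orders was not stated. The remaining type IV chains, which build the kidney and other special basement membranes, were all but missing. Col4a5 had 575 of its 577 counts in Tomato- cells of order 1, 99.5% of all its counts in 1 cell. Col4a6 had a count in 1 cell at 1.27 CPM.

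Col8a1 encodes a short-chain collagen that forms hexagonal networks, known from vessel walls and the cornea (chromosome 16, 57624258 to 57754737). It lay at 635 against 303 CPM in order 1 and, in order 2, at 367 against 312 CPM. Its log2 ratio of 1.07 in order 1 was the highest of the 14 members there, and in order 2 it was 0.23. In order 2 set P1 stood at 566 CPM and set P2 at 218 CPM, beside 314 and 311 CPM in sets N1 and N2, and without set P1 of order 2 the ratio was -0.52. Without set P1 of order 1 the order 1 ratio was 0.30. The share of cells that expressed it was 65.7% against 40% in order 1 and 70.8% against 57.4% in order 2. Col8a2, its usual partner chain, was expressed in 5 of 386 cells. Col8a1 stood alone in 225 of the 229 cells that expressed it. Col8a2 counts were too few for a firm ratio: a single cell held all of them in both groups of order 2, and Tomato- cells of order 1 had none.

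Col3a1, the chain of reticular fibres (chromosome 1, 45311538 to 45349706), behaved differently from types IV and VI. Its promoter window is shown for contrast with the Col4a1 and Col4a2 windows above: it holds 0 CpG pairs, and its only match among the 3 motifs is the TATAAA in capitals.
Col3a1, chr1:45311288-45311587, plus strand: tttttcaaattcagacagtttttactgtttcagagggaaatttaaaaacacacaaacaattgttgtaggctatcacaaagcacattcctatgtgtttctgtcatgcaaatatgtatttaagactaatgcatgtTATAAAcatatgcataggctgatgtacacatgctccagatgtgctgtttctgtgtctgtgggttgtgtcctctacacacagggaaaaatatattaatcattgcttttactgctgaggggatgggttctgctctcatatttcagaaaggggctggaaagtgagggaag
Col3a1 lay at 569 against 335 CPM in order 1 and, in order 2, at 386 against 313 CPM, with log2 ratios of 0.76 and 0.30. These sums rested on few cells. Its median level per cell was 4.41 and 16.3 CPM in order 1 and 102 and 12.3 CPM in order 2, and 140 of 386 cells expressed it. A single cell held 61.9% of the counts in Tomato+ cells of order 1, and single cells held 41.2%, 18.4% and 21.4% in the other 3 groups. Without the top cell of each group the levels were 219 and 204 CPM in order 1 and 322 and 248 CPM in order 2, with ratios of 0.10 and 0.38. Without the 2 cells with the most collagen, both Tomato+ cells of set P1 of order 1, the order 1 ratio was -1.02. Without set P1 of order 1 the order 1 ratio was -0.01, and without set P2 of order 2 the order 2 ratio was -0.54.

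**Figure D3:**
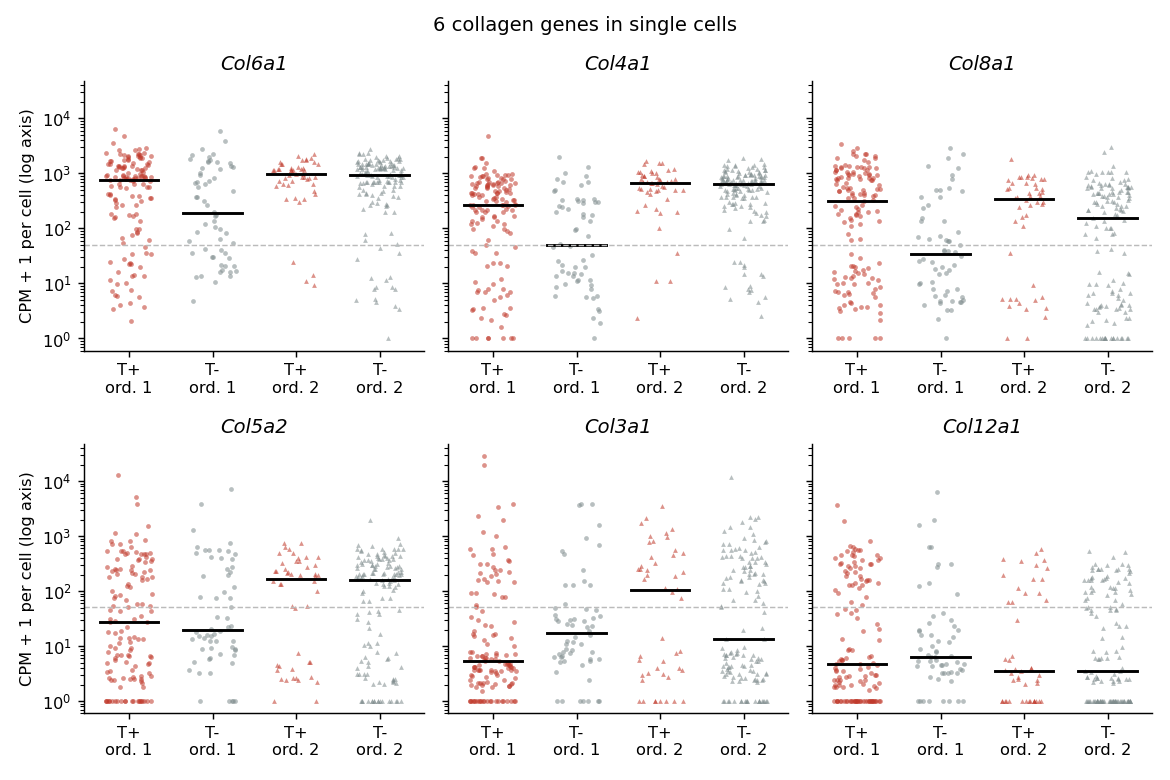
CPM + 1 per cell on a log axis for 6 collagen genes in 386 cells, by group (T+ Tomato+, red; T- Tomato-, grey) and order; black lines are medians and the dashed line is 50 CPM. Col6a1 and Col4a1 lie above 50 CPM in most cells of order 2, whereas over all groups most cells lie under it for Col3a1 and Col12a1.

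Type V collagen copolymerises with types I and III and limits the thickness of fibrils. Col5a2 (chromosome 1, beside Col3a1, at 45374321 to 45503282) lay at 236 against 289 CPM in order 1 and, in order 2, at 199 against 200 CPM. Col5a1 lay at 88.6 against 52.2 CPM in order 1 and, in order 2, at 114 against 80 CPM. Col5a3 lay at 22.2 against 22.5 CPM in order 1 and, in order 2, at 81.4 against 69.5 CPM. Col5a1 had the steadier excess in Tomato+ cells, with log2 ratios of 0.75 and 0.50, the latter under 1.5-fold. Within Lepr-high cells alone, those at 1000 CPM of Lepr or more, its ratios were 0.03 and 0.33. The Col5a2 ratios were -0.29 and -0.01, and those of Col5a3 -0.02 and 0.23. The common type V protein has Col5a1 chains in excess over Col5a2, but RNA and protein ratios need not match. Per length of the longest transcript, Col5a1 RNA stood at 0.14 to 0.45 of Col5a2. The ratio of their mean levels was 0.29 by that length and 0.41 by the exon union. For type I, Col1a1 RNA stood at 0.19 to 0.36 of Col1a2 by the longest transcript, so such a ratio was not particular to type V. Both type V chains were expressed in 81 cells, Col5a2 alone in 119 and Col5a1 alone in 42.

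Of the other fibrillar genes, Col27a1, a fibrillar chain known from cartilage, lay at 60.1 against 34.4 CPM in order 1 and, in order 2, at 32.9 against 24.3 CPM. Its ratios of 0.79 and 0.42 were both above 0, the second short of 1.5-fold. They turned to -0.24 in order 1 without set P1, and in order 2 to -0.01 without set P2 and -0.13 without set N2. It was expressed in 73 cells. Col11a1, a chain of the thin fibrils of cartilage, lay at 26.3 against 5.17 CPM in order 1 but, in order 2, at 2.99 against 20 CPM. Its direction was thus opposite in the 2 orders, with log2 ratios of 2.15 and -2.40, and it was expressed in 27 cells. Its mean over the orders was under 20 CPM in both groups, so it is not among the 14. Col2a1, the main collagen of cartilage, had no count in order 1 and stood at 25.1 against 6.93 CPM in order 2. A count of 0 allows up to 0.03 and 0.09 CPM in the Tomato+ and Tomato- cells of order 1.

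The cells with Col2a1 were set beside other cartilage genes. Of the 11 cells that expressed Col2a1, 0 expressed Acan and 0 expressed Col9a2. Over all 386 cells Acan was expressed in 1 and Col9a2 in 7, so 0 of 11 says little for either. Of the same 11 cells, 3 expressed Col11a1 and 5 expressed Sox9, the transcription factor of the cartilage lineage. Over all 386 cells Col11a1 was expressed in 27 and Sox9 in 119. The highest Col2a1 level, 944 CPM, was in a Tomato+ cell of order 2 with 6241 CPM of Lepr. That cell held 47.1% of the counts of its group. Of the 9 chondrocyte markers, which include no member, Matn1 and Epyc were at 0 in every group. Comp lay at 23.1 against 53.7 CPM in order 1 and, in order 2, at 33.4 against 36.4 CPM. The 9 markers, Sox9 and Comp among them, summed to 99.9 against 163 CPM in order 1 and, in order 2, to 236 against 304 CPM.

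Fibril-associated collagens bind the surface of other fibrils. Col12a1 (chromosome 9, 79598991 to 79718831) lay at 162 CPM in both groups of order 1, against 83.8 CPM (Tomato+) and 69.1 CPM (Tomato-) in order 2. It was expressed in 119 cells, 34.3% and 18.3% of Tomato+ and Tomato- cells in order 1 and 33.3% and 31.9% in order 2. Equal sums in order 1 thus came from unequal shares of cells. The highest Tomato- cell stood at 6306 CPM and the highest Tomato+ cell at 3607 CPM. Without the top cell of each group the levels were 119 (Tomato+) and 122 CPM (Tomato-), with a ratio of -0.03. Col16a1 lay at 38.1 against 54.8 CPM in order 1 and, in order 2, at 73.1 against 75.2 CPM, with ratios of -0.51 and -0.04. Without the top cell of each group its order 1 ratio was 0.16, and without the 2 cells with the most collagen it was -1.05. Col14a1, which is known from tendon and dermis, lay at 2.69 against 24.3 CPM in order 1 and, in order 2, at 0 against 8.53 CPM, where 0 counts allow up to 0.10 CPM. It was lower in Tomato+ cells in both orders but was expressed in only 4 cells. Col20a1 lay at 1.80 against 22.1 CPM in order 1 and, in order 2, at 0.97 against 0 CPM, and 2 cells expressed it.

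Col18a1 is the multiplexin of basement membranes whose C-terminal fragment is endostatin (chromosome 10, 77052178 to 77166548). It lay at 21 against 48.1 CPM in order 1 and, in order 2, at 72.1 against 39.9 CPM. The log2 ratios were -1.16 and 0.84, beyond 1.5-fold in opposite directions. Both directions rested on 1 set: the order 2 ratio was -0.90 without set P2 of order 2, where Col18a1 stood at 110 CPM beside 20.9 CPM in set P1, and the order 1 ratio was 0.35 without set P1 of order 1. One Tomato+ cell of set P3 held 60.2% of the counts of Tomato+ cells of order 1, and without the top cell of each group the order 1 ratio was -1.87. The other multiplexin, Col15a1, was expressed in 2 cells. Col28a1, a collagen known from peripheral nerve, lay at 1.61 against 30.4 CPM in order 1 and had no count in order 2, and 2 cells expressed it.

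The 15 detected members below 20 CPM were each expressed in at most 18 cells. The highest levels in a single cell among them were those of Col6a5 (1050 CPM), Col4a5 (1001 CPM), Col23a1 (585 CPM), Col24a1 (406 CPM), Col6a4 (395 CPM) and Col9a3 (275 CPM). Col24a1, a fibrillar chain of bone, had 99.2% of its counts in the second highest collagen cell of the data.

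Whether partner chains were made by the same cells was asked next. Col6a1 and Col6a2 were both expressed in 264 of 386 cells (68.4%, 63.5 to 73, exact Clopper-Pearson 95% interval). Col6a2 was expressed in 83% of the cells with Col6a1 and in 27.9% of those without it. Across the cells of a group the Spearman correlation of their log2 levels was 0.34 against 0.40 in order 1, and 0.41 against 0.56 in order 2 (n = 137, 60, 48 and 141 cells). It was the highest of the 55 pairs among 11 members in 3 of the 4 groups, while the medians over the pairs ran from 0.09 to 0.19. Cells of a group are not replicates and differ in depth, so the values are descriptions.

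Col4a1 and Col4a2 were both expressed in 219 cells (56.7%, 51.6 to 61.7), Col4a1 alone in 78 and Col4a2 alone in 19. Both were expressed in 41.6% against 21.7% of cells in order 1 and in 83.3% against 77.3% in order 2. Their Spearman correlation was 0.22 and 0.22 in order 1 and 0.16 and 0.24 in order 2. So the pair with 1 start region was less tightly linked from cell to cell, by these numbers, than Col6a1 and Col6a2 were; the difference was not tested. When each cell was thinned to 150000 counts, shallower cells were left out, and 133, 53, 48 and 135 cells of the groups were kept. Of those kept, 74.3% had a count of both type IV chains and 87.5% of both type VI chains. The shares before thinning, 90.7% and 97.2%, are over all 386 cells and include the shallower ones.

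**Figure D4:**
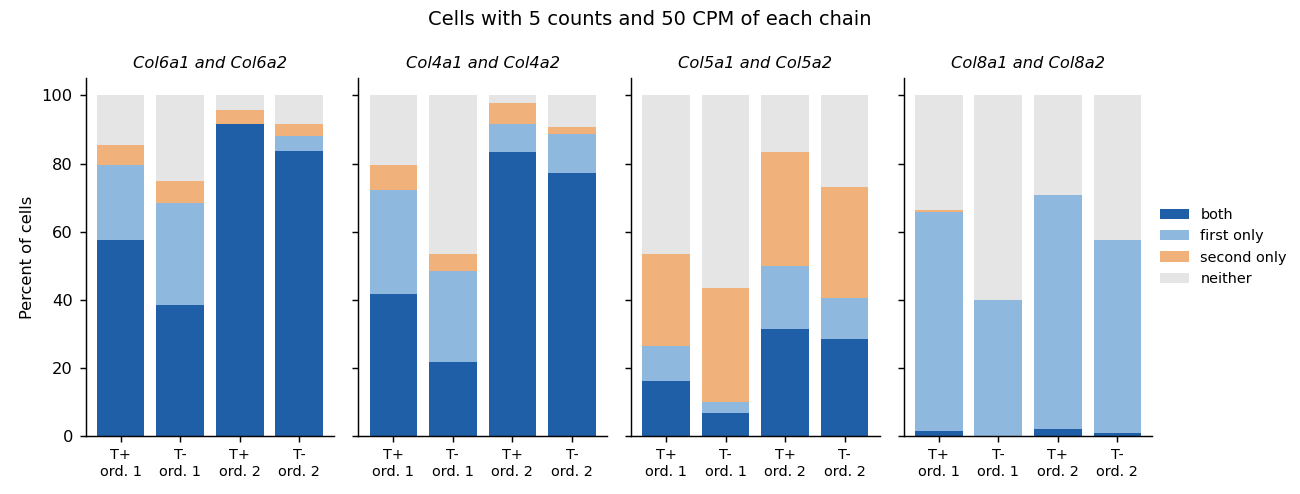
Percent of cells that express both, one or neither chain of 4 pairs at 5 counts and 50 CPM or more, by group (T+ Tomato+, T- Tomato-) and order; first and second follow the order of the names above each panel. Both type VI chains are expressed in 38.3% to 91.7% of cells, while Col8a1 is nearly always found without Col8a2.

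Col3a1 was set beside the type I chain Col1a1. It was expressed with Col1a1 in 106 cells, and Col1a1 was expressed in 75.7% of cells with Col3a1 and in 31.3% of those without it. The Spearman correlation of Col3a1 with Col1a1 was 0.46 and 0.45 in order 1 and 0.22 and 0.46 in order 2. Among the members so compared it was the highest in every group except Tomato+ cells of order 2. There Col6a2 (0.40) and Col5a2 (0.39) had higher correlations with Col1a1. In Tomato- cells of order 1 Col6a1 was close behind at 0.41. Between Col6a1 and Lepr the correlation was 0.40 and 0.28 in order 1 and 0.38 and 0.42 in order 2, whereas between Col3a1 and Lepr it ran from -0.03 to 0.14. The number of members expressed per cell had a median of 6 and 3.5 in order 1 and 8 and 8 in order 2, with a maximum of 12.

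The cells without much Lepr held the highest collagen levels and most of the cells with little collagen. Among the 320 cells with at least 1000 CPM of Lepr, the summed level of the 42 members had a median of 3559 CPM, quartiles of 2482 and 4682 CPM, and a highest value of 9244 CPM. Among the remaining 66 cells the median was 398 CPM and the quartiles were 89.8 and 4706 CPM. All 6 cells above 10000 CPM were among these 66, and so were 35 of the 45 cells under 500 CPM. The lowest value was 13.6 CPM among the Lepr-high cells and 13.9 CPM among the 66. Low-Lepr cells made up 19.7% of Tomato+ and 36.7% of Tomato- cells in order 1 and 2.08% and 11.3% in order 2. Col6a1 was expressed in 90% of Lepr-high and 45.5% of the other cells, and Col4a1 in 86.9% and 28.8%. Col6a3 went the other way, 8.75% against 16.7%, with mean levels per cell of 23 and 146 CPM.

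**Figure D5:**
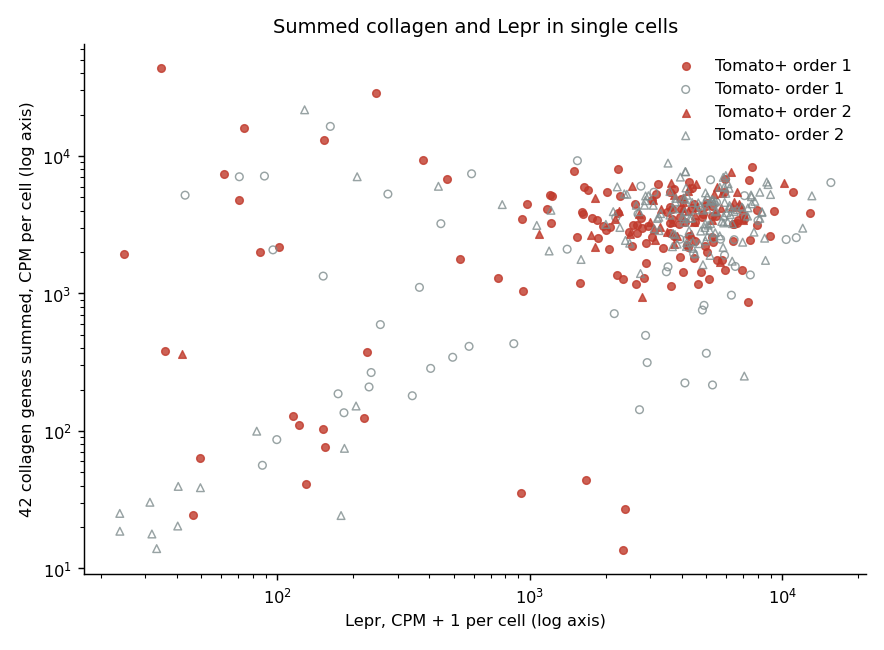
Summed level of the 42 collagen genes against Lepr + 1 in each of 386 cells, both in CPM on log axes, by group (red Tomato+, grey Tomato-) and order (circles order 1, triangles order 2). Cells at 1000 CPM of Lepr or more stay at or under 9244 CPM of collagen, and the 6 cells above 10000 CPM all lie to their left.

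The 2 cells richest in collagen, at 43612 and 28843 CPM, were both Tomato+ cells of set P1 of order 1. They held 28653 and 19675 CPM of Col3a1, 3813 and 1558 CPM of Col5a2, and 1586 and 2568 CPM of Col6a3. In the same cells the network collagens were near 0: Col4a1 at 0 and 6.45 CPM, and Col8a1 at 3.65 and 19.4 CPM. Col1a1 stood at 38027 and 8610 CPM, and each cell expressed 5 of 12 osteoblast markers, of which 103 of the 137 cells of their group expressed at least 3. The second expressed 3 of 6 tendon and 10 of 18 Lepr+ stroma markers. The next cell, a Tomato- cell of order 2 at 21676 CPM, expressed 7 of 10 markers of Sca1+ fibroblasts and 3 of 11 leukocyte markers. It led the data in Col14a1 (1167 CPM) and Col15a1 (206 CPM).

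The cells after it, at 16421 and 16033 CPM, held more Col6a1 and Col8a1. They were led by Col6a1 at 3840 and 6405 CPM, with Col3a1 second at 3789 and 3778 CPM, and held 2226 and 2297 CPM of Col8a1. In the first of them Col5a2 was close behind at 3787 CPM. Lepr lay at 161 and 72.8 CPM. In the last of the 6, at 13161 CPM, a single member, Col5a2 at 12908 CPM, made up nearly all of the sum. Leaving out the 2 richest cells moved the order 1 ratios of Col6a3 from 0.19 to -0.72 and of Col12a1 from 0.01 to -0.44. Leaving out set P1 of order 2 moved the order 2 ratio of Col6a3 from 0.38 to -0.16, and leaving out set P2 of order 2 moved that of Col12a1 from 0.27 to -0.46. Without the 2 richest cells, which held little Col4a1 or Col8a1, the order 1 ratios of these genes were 0.70 and 1.09.

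The lower end was uneven between sets. Of the 45 cells under 500 CPM of collagen, 17 belonged to set N2 of order 1, 12 to set P3 of order 1, 2 to set P2 of order 1, 2 to set N1, 11 to set N2 and 1 to set P2 of order 2. Set P1 of order 1 and set P1 of order 2 had 0. In set N2 of order 1 these cells had a median of 191601 counts against 669003 in the rest of the set, and 494 against 3931 CPM of Lepr. All 11 of set N2 of order 2 were leukocyte-list cells, and they were no shallower, with a median of 865483 counts. The part of depth and of leukocyte markers in the group ratios was not tested.

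Among Tomato- cells of order 2 the leukocyte-list cells were lower in type IV and VI chains. Col6a1 had a median of 83 CPM in the 29 such cells and 980 CPM in the other 112, and Col4a1 294 against 666 CPM. Col3a1 had medians of 19 and 8.39 CPM. Without the cells that expressed 3 markers of another cell type, in all groups, the order 2 ratio of Col3a1 was 0.62. Then 1 member, Col3a1, passed the size rule, and the share of all genes was not taken under that setting. Among the cells left out was 1 leukocyte-list cell at 11984 CPM of Col3a1, with 21.4% of the Col3a1 counts of Tomato- cells of order 2. Without that cell alone this group stood at 248 CPM, beside 386 CPM in Tomato+ cells. The cell with 61.9% of the Col3a1 counts of Tomato+ cells of order 1 was not left out. The 15 cells with pericyte and smooth muscle markers were at the high end instead: all 15 expressed Col4a1 with a median of 703 CPM, and 14 expressed Col6a1 with a median of 1240 CPM.

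Several rare members met in the same cell. A Tomato- cell of order 1 held 84.3% of all Col28a1 counts (912 CPM), 75.2% of Col20a1 (660 CPM) and 99.0% of Col9a3 (275 CPM). Lepr lay at 42.1 CPM in that cell. A Tomato+ cell of order 1 with 3174 CPM of Lepr also held Col20a1 (215 CPM), Col23a1 (228 CPM) and Col28a1 (187 CPM). The cell with nearly all Col4a5 expressed 8 of 10 pericyte and smooth muscle markers, with Col4a1 at 1039 CPM and Col4a2 at 1051 CPM. Col25a1 had counts only in a Tomato+ cell of order 2 that expressed all 11 endothelial markers.

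Genes that process collagens were next compared by the same rule, by which 7.75% of all genes were called. Of 20 genes for hydroxylation and folding of the chains, 18 reached the level and 1 was called, Tmem38b, an ion channel of the endoplasmic reticulum, at 19.8 against 0.40 CPM in order 1 and, in order 2, at 34.4 against 21.7 CPM. Serpinh1, the collagen chaperone, lay at 825 against 727 CPM in order 1 and, in order 2, at 898 against 857 CPM. P4hb, a subunit of prolyl 4-hydroxylase, lay at 580 against 380 and 1284 against 972 CPM. The median log2 ratio over this list was 0.64 in order 1 and 0.06 in order 2. In order 1 alone 11 of the 18 were over 1.5-fold higher in Tomato+ cells and 1 was lower, and in order 2 alone 1 was higher and 0 were lower. None was called among 6 secretion genes, among the 8 of 15 propeptide removal and crosslinking genes at the level, among 8 of 13 receptors or among 12 of 14 collagen-binding matrix genes. In order 1 alone 6 of the 12 matrix genes, 3 of the 8 propeptide removal and crosslinking genes, 2 of the 8 receptors and 2 of the 6 secretion genes were over 1.5-fold higher, where 27.6% of all genes were. There 1 matrix gene, 1 receptor and 1 secretion gene were over 1.5-fold lower, where 24.5% of all genes were. In order 2 alone Adamts14, of the propeptide removal and crosslinking list, was higher and no gene of the other lists just named, where 9.37% of all genes were. In that order 2 matrix genes and 1 secretion gene were lower, where 14.2% of all genes were.

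Of the crosslinking list, Pcolce, an enhancer of propeptide removal, lay at 609 against 421 CPM in order 1 and, in order 2, at 901 against 785 CPM. Adamts2, which cuts off the N-propeptide, lay at 800.6 against 282 and 587 against 704 CPM. Sec24d, a coat protein for procollagen export, lay at 104 against 49.7 and 134 against 138 CPM. Among receptors Itgb1 lay at 467 against 508 CPM in order 1 and, in order 2, at 813 against 749 CPM, and the collagen receptor kinase Ddr2 at 488 against 377 and 362 against 355 CPM. Sparc, a collagen-binding matrix protein, lay at 3886 against 2144 and 3414 against 2777 CPM. The median ratio over these lists was 0.44 and 0.21 for crosslinking, 0.21 and -0.11 for secretion, 0.14 and 0.07 for receptors and 0.61 and 0.10 for matrix genes. In each list it was higher in order 1, where 36.7% of Tomato- cells were low in Lepr; the part of those cells was not tested.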

How the data were processed

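The data are the authors' 1 deposited table of expected counts (fractional estimates of reads per gene) for 25000 genes in 388 single cells, 1 cell to a sample. Per the file headers RSEM made the columns of order 1. Other tools in the submitters' processing notes are HISAT, StringTie 1.3.3b and HTSeq 0.6.0, with the build GRCm38, but not which step used which. Strand was not stated. No molecular identifiers were mentioned, so intervals and floors cover counting error only.

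Values were rounded (4.91% of those above 0 were not whole). Columns were matched by name to a title set, not to a single title, and 0 were unused. The 386 cells with 1000 genes and 10000 counts or more were analysed, without 2 cells of set P3 of order 1 that had 4014 and 7927 counts. No doublet caller was run. Counts were summed per group and order, scaled to CPM and compared as log2(CPM + 1), the value being the mean of both orders. The 95% intervals are exact Poisson or Clopper-Pearson. The limits in the text for a count of 0 are not these intervals and rest on a set floor of 3 counts. The exact upper limits are somewhat higher, for Col2a1 in order 1 0.033 CPM (Tomato+) and 0.112 CPM (Tomato-). Levels per kilobase used the longest GENCODE M21 transcript in place of the planned exon union. Members at 20 CPM in a group were named, of the others the 6 highest in a cell, and of each pathway list the called and up to 2 of the highest genes. Members, lists and rules were chosen with earlier results of these data known. The expression call of 5 counts and 50 CPM and the Lepr split at 1000 CPM were chosen after seeing the data. Only the size rule was tested on simulated data. These were Poisson counts in which a gene had the same share in every cell of a group. Genes whose counts rest on a few cells were not simulated. Alternatives were other pseudocounts, filters, scalings and cell subsets, and each title set left out. Python 3.11.15, numpy 2.4.6, pandas 2.3.3, scipy 1.17.1 and matplotlib 3.10.9 were used.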

Additional observations from a re-analysis of the deposited data

How the results depend on the processing

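The count of 0 collagen genes past the size rule became 3 with no filter on level (Col6a4, Col14a1 and Col23a1, all lower in Tomato+ cells). It was 7 when all cells were summed over both orders, which mixes the orders (Col3a1, Col6a3, Col8a1, Col12a1 and Col27a1 higher, Col5a3 and Col16a1 lower), and 1 without cells with 3 markers of other cell types (Col3a1). With 1 title set left out at a time it ran from 0 to 3. It was 2 without set N2 of order 1, which leaves order 2 alone (Col18a1 higher, Col11a1 lower), 2 without set P1 of order 2 (Col3a1 and Col27a1), 3 without set P2 of order 2 (Col5a1 and Col8a1 higher, Col18a1 lower) and 1 without set N1 of order 2 (Col27a1). Summing over both orders, or leaving out set N2 of order 1, puts the 1.5-fold limit on a single ratio. The share of all genes called, 7.75%, was taken in the main setting only. Counts under the other settings, also those of the pathway lists below, thus have no such share beside them and are not read as results about these genes. The median log2 ratio of 0.17 became 0.12 with median-of-ratios scaling, 0.036 over both orders and 0.27 with the mean of per-cell CPM. It was 0.052 without cells with Ptprc or Pecam1 counts and 0.20 without cells with other markers. With order 1 cut to cells whose code in the column name occurs in both groups, it was 0.24. After seeing the data, 2 more subsets were tried: it was 0.053 without the 2 highest collagen cells and 0.080 in cells with 1000 CPM of Lepr or more. It ran from 0.12 to 0.23 with 1 set left out. In the pathway lists the 1 called gene became 0 with a pseudocount of 5 CPM or a filter of 50 CPM, 2 with no filter, median-of-ratios scaling, the mean of per-cell CPM or without each gene's top cell, 4 without Ptprc or Pecam1 cells and 8 over both orders, and ran from 0 to 4 with 1 set left out (0 without set P1 of order 1, 4 without set N2 of order 1 or set P2 of order 2). By the median per cell, 8 and not 19 members reached 20 CPM. The share of cells with both type IV chains, 90.7% at 1 count, was 64.5% at 5 counts, 74.3% after thinning, which left out the shallower cells, and 56.7% at 5 counts and 50 CPM. For Col6a1 and Col6a2 the 97.2% became 78.8%, 87.5% and 68.4%, and for Col6a1 and Col6a3 the 35.8% became 14.5%, 21.95% and 9.84%. For each of these changes the cause was not tested, except that fewer cells pass a higher count. No paired analysis was possible because no test was made: each group within an order is 1 sample, and although set numbers 1 and 2 occur in both groups of order 2, no label says that a number marks a shared animal or day.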
